A study of Mus musculus with 32 samples.

Results

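Gene expression was compared between parental mouse embryonic stem cells (ESCs) kept in CHIRON alone for 2 passages (CHp2, 3 libraries) and the same cells kept in 2i for 5 passages (2i-p5, 3 libraries). These 6 libraries were taken by their culture labels from 32 in the series, and the comparison asks what differs once MEK is no longer inhibited while GSK3 still is. The cells carry the genotype RGd2, a knock-in of a destabilised GFP at the Rex1 (Zfp42) locus that reports the naive state, and no gene was deleted in them. 2i combines PD0325901, an inhibitor of MEK, with CHIR99021 (CHIRON), an inhibitor of GSK3, in the serum-free medium N2B27. The series also holds 3 libraries of the same cells after 72 h in N2B27 without either inhibitor (N72h), which served as a further reference, and mutant lines that enter the text only through the shared estimate of the spread.

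ESCs in 2i are held in naive pluripotency, the state of the cells of the early epiblast. FGF4 made by the cells themselves activates MEK and its substrate ERK, and this signal drives the exit from the naive state. GSK3 marks beta-catenin for destruction, so its inhibition stabilises beta-catenin, which acts through the TCF/LEF factors on targets that many cells use as a Wnt response. CHIRON alone leaves MEK uninhibited while GSK3 is still inhibited.

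The limits of these groups as a model are as follows. In each group, 2 libraries came from the parental line 1903.4 and 1 from a clonal line derived from it, 1903.4-2. The passage number (2 against 5) changes together with the medium, so the effects of passage and of medium cannot be told apart. According to the study, parental cells cannot be kept in CHIRON alone for longer than this. Nothing in the labels says whether libraries of a group came from separate cultures, and p-values then measure the spread between these libraries, which may be technical. In bulk libraries, fewer cells that express a gene and less RNA of it per cell cannot be told apart.

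The libraries held 9255795 to 22213048 counts on genes in 2i-p5, 12588312 to 19430463 in CHp2 and 16037731 to 38923444 in N72h. External RNA spike-ins took 1.35% ± 0.0702 (SD, n = 3) of counts in CHp2 and 1.47% ± 0.0636 (SD, n = 3) in 2i-p5 (two-sided exact permutation test, p = 0.2, with 0.1 the smallest p possible for 3 against 3). Counts were divided by size factors from these spike-ins, and the results are called normalized counts. FPKM, the level per length of transcript, is used where genes are set beside each other. A gene was called higher or lower when its adjusted p was under 0.05 and either or both group means reached an FPKM of 1 (edgeR's quasi-likelihood test, Benjamini-Hochberg adjustment over 19037 genes). All adjusted p-values in the text come from this test. SE is the standard error of the log2 fold change, and values for single libraries are given in the order of the replicate numbers, with the clonal line last.

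Of 12063 genes with an FPKM of at least 1, 3450 (28.6%) were higher in CHp2 and 1633 (13.5%) were lower. By adjusted p alone, without the minimum, 5063 of all 19037 genes tested were higher and 2012 lower. These are the background for list counts made by adjusted p alone. In 4947 of the 5083 called genes all CHp2 libraries lay above or all lay below the range of 2i-p5, as they did in 54.7% of all genes that passed the FPKM minimum. The level in CHp2 was at least 10 times that in 2i-p5 for 216 of the higher genes and 38 of the lower genes fell by the same factor or more. The spike-in scale placed the median gene 0.17 above 0 on the log2 scale, and with TMM normalization of the gene counts, which sets that median near 0 (-0.0024), 2675 genes were higher and 3461 lower. The share of higher genes among those called was thus 67.9% on the spike-in scale and 43.6% with TMM. All 2675 genes that TMM called higher and all 1633 that the spike-ins called lower were called the same way by both. The 2 scales shift every gene alike, and changes well above 0.17 were therefore read as changes relative to the median gene.

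**Figure D1:**
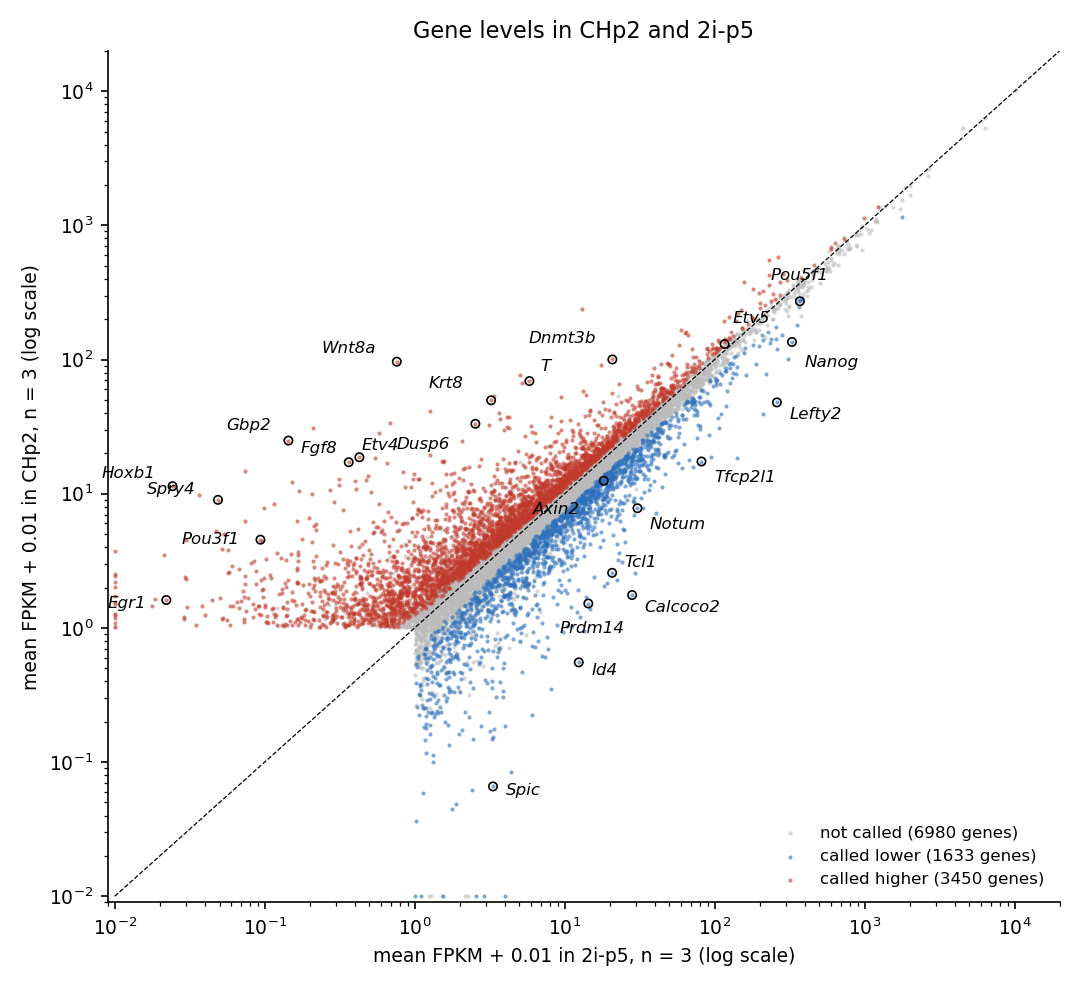
Mean FPKM of each of the 12063 genes in 2i-p5 (x axis) and CHp2 (y axis), both on log scales after adding 0.01, with the dashed line at equal levels. Red points are the 3450 genes called higher and blue points the 1633 called lower. Wnt8a, T and Spry4 lie far above the line, Spic, Id4 and Prdm14 far below it, and Etv5 and Pou5f1 close to it.

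Feedback inhibitors of the ERK pathway rose together. Of 11 feedback inhibitors listed, 10 passed the FPKM minimum and all 10 rose. By adjusted p alone, without the minimum, all 11 were higher. The median log2 fold change was 2.21 over the 11 against 0.17 over all genes tested. Spry4, a Sprouty protein that dampens receptor signalling to ERK, stood at 4.71, 6.57 and 1.03 normalized counts in 2i-p5 and at 1006, 1085 and 1000 in CHp2. It was nearly silent in every 2i-p5 library, and the fitted log2 fold change of 8.07 (SE 0.25, adjusted p = 9.47e-26) rests on few counts there. Dusp6, a phosphatase that removes the activating phosphates from ERK, rose from 156, 208 and 183 to 2742, 2712 and 2356 normalized counts, which is 14.1-fold (adjusted p = 1.48e-23). Dusp4, a related nuclear phosphatase, rose 9.73-fold, from 264 ± 52.1 to 2578 ± 151 normalized counts (mean ± SD, n = 3). Spry2 rose 4.63-fold and the Sprouty-related Spred1 and Spred3 rose 4.14-fold and 10.4-fold.

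Levels of these inhibitors in CHp2 were set beside those at 72 h in N2B27, where ERK is likewise not held back by an inhibitor. Over all genes, 2412 (19.8%) were higher in CHp2 than in N72h and 2091 (17.2%) lower, of 12159 with an FPKM of at least 1. Of the ERK feedback inhibitors, 6 were higher in CHp2 and 1 was lower. Dusp6 stood at 2579, 2734 and 2517 normalized counts in N72h, and no difference from CHp2 was detected (log2 difference -0.00, SE 0.12, adjusted p = 0.994). Spry4 was at 515, 611 and 653 in N72h, below all CHp2 libraries (log2 difference 0.80, SE 0.13, adjusted p = 5.24e-06).

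The PEA3 group of ETS transcription factors, a textbook target of FGF and ERK signalling, split in total counts per gene. Etv4 rose 50.4-fold, from 18.9, 30.2 and 26.7 to 1340, 1205 and 1448 normalized counts (adjusted p = 9.47e-26). Etv5 had by far the highest level of the 3 in 2i-p5, at an FPKM of 117, where Etv4 had 0.353 and Etv1 0.529. It read 10670, 11870 and 10340 normalized counts in 2i-p5 and 13680, 13110 and 13370 in CHp2. The Etv5 groups did not overlap, yet the difference of 1.22-fold did not pass the test in the model of all 32 libraries (log2 0.29, SE 0.15, adjusted p = 0.123), whereas a model of the 6 libraries alone called it (adjusted p = 0.00822). The study reports only a shortened Etv5 isoform in undifferentiated cells, and the full-length isoform where ERK is active. Counts per gene sum both isoforms, so a switch between them would not show here and was not tested. Etv1 rose 2.6-fold against 2i-p5. A further 3 RGd2 libraries in 2i (2 parental and 1 clonal), whose labels give no passage, are called the other 2i libraries. By the study's methods, lines were routinely kept in CHIRON with the cytokine LIF, without MEK inhibitor, and moved to 2i shortly before assays. The culture history of these 3 libraries may therefore differ from that of 2i-p5. Against them, Etv1 was lower in CHp2 (log2 fold change -0.43, adjusted p = 0.0101).

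Immediate early genes, which cells switch on within minutes of ERK activation, rose as well. All 8 of 13 that passed the FPKM minimum were higher, 6 of them with TMM. Some of the 8, Myc among them, reached this minimum only in CHp2, so that the minimum itself favoured a rise. By adjusted p alone, without the minimum, 12 of the 13 were higher and none lower. The median log2 fold change over the 13 was 3.45, or 2.21 with the 4 genes at the detection floor in 2i-p5 set to their lower bound. Egr1, a zinc finger factor, gave 2.36, 1.31 and 0 normalized counts in 2i-p5 and 208, 165 and 168 in CHp2, which is at least 38.4-fold higher when 3 counts per library are taken as the floor. Atf3, a stress-induced bZIP factor, rose from 14.9 ± 2.22 to 694 ± 143 (log2 fold change 5.57), and Junb 16-fold, from 30.3 ± 5.82 to 484 ± 76.1. Jun rose 14.3-fold. Myc rose 4.39-fold against 2i-p5, from an FPKM of 0.889 to 3.71, although against the other 2i libraries it did not differ (log2 fold change 0.30, adjusted p = 0.135). Fos remained under an FPKM of 1 at 76.6, 62.6 and 26.2 normalized counts in CHp2, with the clonal library lowest, and met the minimum when only the parental libraries were used.

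**Figure D2:**
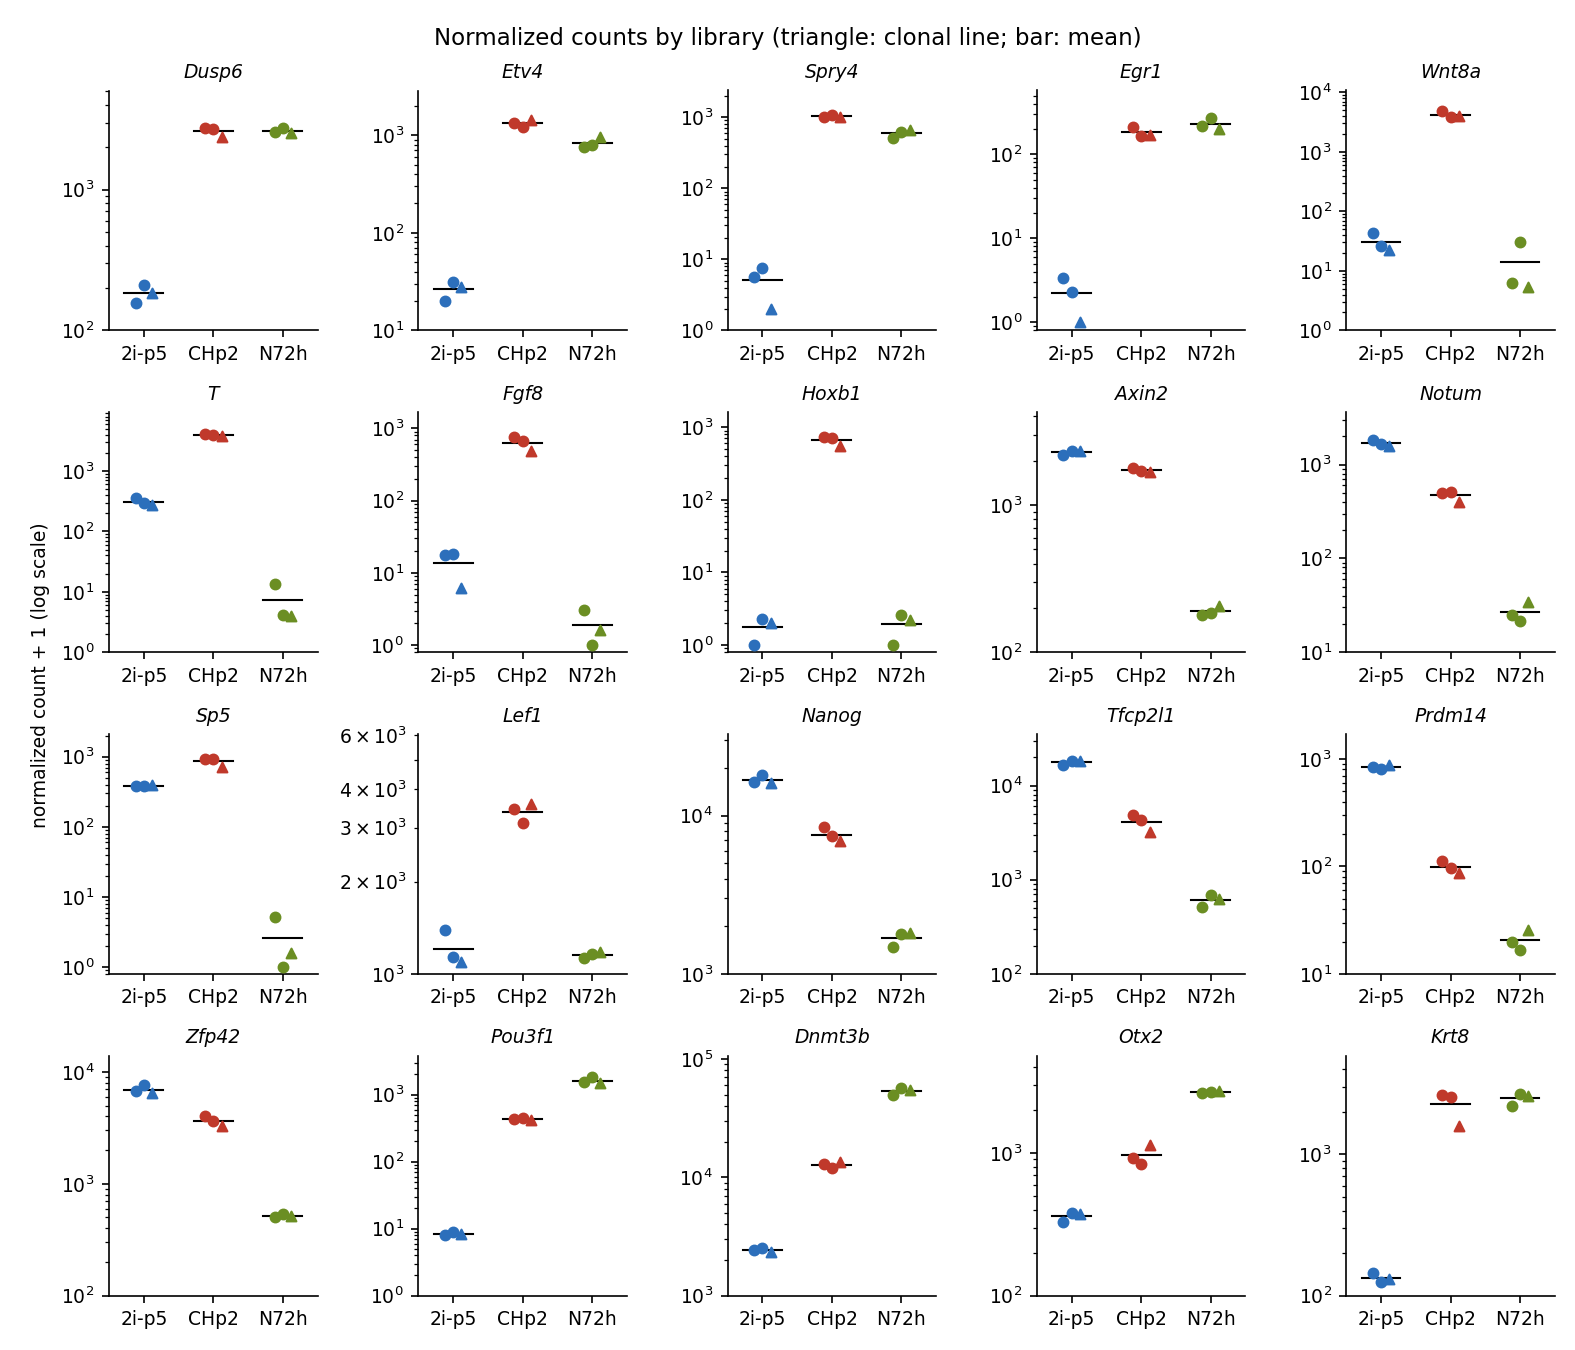
Normalized count plus 1 (log scale) of 20 genes in each library of 2i-p5, CHp2 and N72h (n = 3 each), where circles are the parental line, triangles the clonal line and bars the group mean. Dusp6, Etv4, Spry4, Egr1 and Krt8 were low in 2i-p5 and high in both groups without MEK inhibitor, Wnt8a, T, Fgf8 and Hoxb1 were high in CHp2 and low in the other groups, and Nanog, Tfcp2l1, Prdm14 and Zfp42 lay between the other groups in CHp2.

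Of the FGF ligands and receptors, 5 of the 7 that passed rose and 1 fell. A member low in 2i-p5 could reach the FPKM minimum through CHp2 alone, which favours a rise. By adjusted p alone, without the minimum, 6 of the 11 tested were higher and 1 lower. Fgf4, the ligand that ESCs secrete to activate ERK in themselves, fell from 3075, 3693 and 2966 normalized counts to 894, 836 and 962 (log2 fold change -1.86, SE 0.12, adjusted p = 6.60e-16). It was also lower than in N72h, where it read 2392, 2320 and 2508. Fgf8, a ligand of the primitive streak, rose 52.6-fold to 751, 670 and 484 normalized counts, while N72h held 2.07, 0 and 0.609. That places Fgf8 at least 198-fold higher in CHp2 than in N72h. Fgf5, a marker of the epiblast after implantation, rose 7-fold against 2i-p5 but reached only 110 ± 22.6 normalized counts against 628, 717 and 626 in N72h. Fgf15 rose 9.74-fold. The receptor Fgfr1 rose by 0.39 on the log2 scale (adjusted p = 0.007), a call that TMM did not make.

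Genes that respond to beta-catenin did not move as a block, although GSK3 was inhibited in both groups. Of 16 listed, 13 passed the FPKM minimum, 8 rose and 2 fell, with a median log2 fold change of 1.09. Against the other 2i libraries this median was -0.19, as was that of all genes tested (-0.19), with 4 members higher and 4 lower. Against N72h, where GSK3 is active, 11 members were higher in CHp2 and none lower. Axin2, a negative regulator of the pathway and its most used reporter, read 2201, 2344 and 2345 normalized counts in 2i-p5, 1778, 1714 and 1670 in CHp2, and 177, 184 and 206 in N72h. It was thus slightly lower in CHp2 than in 2i-p5 (log2 fold change -0.42, SE 0.14, adjusted p = 0.0129) and far above N72h (log2 difference 3.18). With only the parental libraries, the Axin2 difference of -0.38 lost its call (adjusted p = 0.0905). Notum, a secreted enzyme that inactivates Wnt proteins, fell to 28% of its 2i-p5 level, from 1681 ± 111 to 470 ± 64.2 normalized counts (adjusted p = 7.71e-12).

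Other targets rose. Sp5, a zinc finger factor induced directly by beta-catenin, went from 386, 376 and 399 to 921, 935 and 708 normalized counts (log2 fold change 1.14, SE 0.26, adjusted p = 5.51e-04), with 4.15, 0 and 0.609 in N72h. Sp8 rose 2.13-fold and Nkd1, an inhibitor of the pathway, 3.99-fold. The caudal factors Cdx1 and Cdx2, which position the trunk and tail, rose 4.46-fold and 3.06-fold against 2i-p5, but did not differ from the other 2i libraries (log2 fold changes 0.41 and 0.40, adjusted p = 0.0637 and 0.25). Cdx4 rose from 0, 6.57 and 0 to 85.1, 63.8 and 20.6 normalized counts, and without CHp2 replicate 4 its level no longer met the FPKM minimum.

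The promoters of Sp5 and T, both of which rose here and gave few counts in N72h, are shown with the TCF/LEF motif in capitals (CTTTGAT or CTTTGAA, on either strand). They are the 250 bases before the start site in RefSeq's GRCm38.p6, Sp5 from chr2:70474673-70474922 and T from chr17:8434173-8434422, both on the plus strand. The match begins 104 bases before the start site in Sp5 and 235 before it in T.
Sp5: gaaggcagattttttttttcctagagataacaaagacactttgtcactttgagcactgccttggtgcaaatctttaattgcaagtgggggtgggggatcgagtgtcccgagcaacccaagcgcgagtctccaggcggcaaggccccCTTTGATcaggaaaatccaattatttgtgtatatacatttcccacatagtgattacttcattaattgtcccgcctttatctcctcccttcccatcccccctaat
T: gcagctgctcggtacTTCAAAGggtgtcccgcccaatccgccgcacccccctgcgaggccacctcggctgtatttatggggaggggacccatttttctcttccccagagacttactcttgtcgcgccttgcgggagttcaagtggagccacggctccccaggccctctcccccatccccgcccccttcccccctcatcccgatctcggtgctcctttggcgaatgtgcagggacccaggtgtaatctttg
Of all 32851 promoters searched over 300 bases (250 before and 50 after the start), 8.65% held this motif. Among the named genes with a promoter in the table, it was present in 7 of 75 that rose and 2 of 48 that fell. Neither the Axin2 nor the Cdx2 window held these letters.

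Of 9 Wnt ligands listed, 4 passed the FPKM minimum and 3 of them rose. By adjusted p alone, without the minimum, 6 of the 9 were higher and none lower. Wnt8a, a ligand of the primitive streak, read 42.4, 25 and 21.6 normalized counts in 2i-p5 and 4763, 3895 and 4011 in CHp2. At an FPKM of 96.4 it had the highest level of the 9, and the log2 fold change was 7.26 (SE 0.34, adjusted p = 4.31e-20). Wnt6 rose from 3.66 ± 2.53 to 168 ± 36.6 normalized counts and Wnt5b from 196 ± 17.3 to 763 ± 21.1. All 3 were higher in CHp2 than in N72h, where Wnt8a gave 5.18, 29.7 and 4.26. Wnt3 read 149 ± 40.3 and 181 ± 12.9 normalized counts in 2i-p5 and CHp2 (adjusted p = 0.467), but it was higher in CHp2 than in the other 2i libraries (log2 fold change 2.62, adjusted p = 3.17e-09).

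Of the 4 TCF/LEF factors, which carry beta-catenin to DNA, Lef1 rose and Tcf7l1 fell. Lef1, which mostly activates, rose 2.81-fold, from 1388, 1137 and 1094 to 3459, 3104 and 3569 normalized counts (adjusted p = 2.40e-09). Tcf7l1 represses naive genes in ESCs when beta-catenin is absent. It fell to 41.4% of its level, from 495, 592 and 463 to 245, 202 and 194 (adjusted p = 2.84e-05), and was also lower than in N72h at 508, 639 and 664. Tcf7l2 stayed under an FPKM of 0.22 in both groups.

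Of 16 genes of the primitive streak, the site of gastrulation, 5 passed the FPKM minimum, of which T and Fgf8 rose and Nodal fell. By adjusted p alone, without the minimum, 3 were higher and 3 lower, with a median log2 fold change of 0.39 over the 13 tested. T (Brachyury), the founding mesoderm factor, went from 354, 292 and 274 to 4159, 3988 and 3866 normalized counts (log2 fold change 3.72, SE 0.22, adjusted p = 2.13e-17), with 12.4, 3.12 and 3.05 in N72h. Eomes read 253 ± 50.9 and 199 ± 26.7 (adjusted p = 0.198), and was lower in CHp2 than in the other 2i libraries (log2 fold change -0.87, adjusted p = 0.00157). Mixl1 read 40.4, 37.5 and 18.7 in CHp2, under an FPKM of 0.56.

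Of 39 Hox genes, which give trunk cells their position, 33 stayed under an FPKM of 1 in both groups. The other 6 were called higher, but 5 of them reached this minimum only in CHp2, so that the minimum itself favoured a rise. By adjusted p alone, 11 of the 23 tested were higher and 3 lower. Among the 6 were Hoxa2, Hoxb1 and Hoxb2. Hoxb1 gave 0, 1.31 and 1.03 normalized counts in 2i-p5 and 721, 712 and 553 in CHp2, at least 141-fold higher. Hoxb2 gave no count in any 2i-p5 library and 357, 338 and 286 normalized counts in CHp2, at least 69.6-fold higher. Hoxa2 rose from 16.5, 3.94 and 0 to 68.1, 65.1 and 31.8, and gave no count in any N72h library.

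The naive pluripotency network fell in part. Of its 16 genes, all with an FPKM of at least 1, 14 fell, Gbx2 rose and Dppa3 did not change detectably (171 ± 48.9 against 168 ± 17.2 normalized counts, adjusted p = 0.977). The median log2 fold change was -1.16, and the same 14 and 1 were called with TMM. Tfcp2l1, a factor that links GSK3 inhibition and LIF to self-renewal, went from 16550, 18430 and 18000 normalized counts to 4901, 4268 and 3208 (log2 fold change -2.10, SE 0.14, adjusted p = 5.50e-16). Nanog fell to 45.2% of its 2i-p5 level, from 16240, 18110 and 16160 to 8505, 7417 and 6883. Every CHp2 library lay below every 2i-p5 library for these genes, with the clonal library lowest in CHp2. Esrrb, a nuclear receptor bound to many naive genes, fell to 38.2% and Klf4 to 42.9% of the 2i-p5 level.

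The deepest falls in the network were those of Prdm14 and Tcl1. Prdm14, which restrains FGF receptor signalling and DNA methylation genes, fell from 841, 809 and 875 to 111, 95.1 and 85.9 normalized counts (log2 fold change -3.12, SE 0.16, adjusted p = 2.64e-19). Tcl1, a coactivator of AKT, fell to 13.5%. Nr5a2, a nuclear receptor that binds the Pou5f1 gene, fell to 25.9%. Zfp42, the locus of the reporter, fell from 6944 ± 606 to 3631 ± 384 (52.3%). Gbx2, a homeobox gene with a role in naive self-renewal and in later patterning, rose 7.77-fold, from 94.3, 104 and 116 to 779, 840 and 856, and N72h held only 79.8, 92.1 and 112.

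Against N72h, all 16 naive genes were higher in CHp2, with a median log2 difference of 2.70. Nanog read 1484, 1788 and 1820 normalized counts in N72h, Esrrb 862, 778 and 858, and Zfp42 505, 536 and 512. Nr5a2 differed most of the 16, with 44.6, 35.9 and 42.6 in N72h against 772, 714 and 710 in CHp2 (log2 difference 4.13). Apart from Gbx2 and Dppa3, the naive genes thus had levels in CHp2 between those of 2i-p5 and of N72h.

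Among 10 genes shared by all pluripotent states, 4 rose and 4 fell. Pou5f1 (Oct4), required in both naive and primed cells, read 18690, 19820 and 18620 in 2i-p5 and 15370, 13910 and 16530 in CHp2, which is 80.2% (adjusted p = 0.0048). Sox2 fell to 61.4%, while N72h had 1613, 1637 and 1708 normalized counts against 4365, 4052 and 3653 in CHp2. Lin28a, an RNA-binding protein that blocks let-7 maturation, rose 3.03-fold to 18380, 16120 and 15130 and did not differ detectably from N72h (adjusted p = 0.571). Utf1 rose 2.14-fold. Foxd3 fell to 33.5%, and Sall4 fell by 0.26 on the log2 scale, a call that was lost on leaving out any 1 of the 6 libraries.

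Genes of the LIF and STAT3 pathway, through which LIF keeps ESCs naive, were split with 3 higher and 3 lower of 10. Stat3 itself read 811 ± 12.7 in 2i-p5 and 810 ± 112 in CHp2. Among its targets, Socs3, which inhibits the kinase JAK, and Junb, also counted above as an immediate early gene, rose. The LIF-linked factor Tfcp2l1 fell, as given above. Socs3 went from 11.8, 2.63 and 7.2 to 230, 322 and 230 normalized counts, which is 39.4-fold (adjusted p = 2.13e-14). N72h held 241, 264 and 242, within the range of CHp2. Both receptor chains fell, the LIF receptor Lifr to 38.9% (2401 ± 228 to 934 ± 104) and its partner Il6st to 56.9%. Jak3 fell to 31%.

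The Socs3 promoter is shown because it holds a copy of the GAS motif that STAT factors bind (TTCNNNGAA), beginning 154 bases before the start site, in RefSeq's GRCm38.p6 at chr11:117969367-117969616, minus strand.
Socs3: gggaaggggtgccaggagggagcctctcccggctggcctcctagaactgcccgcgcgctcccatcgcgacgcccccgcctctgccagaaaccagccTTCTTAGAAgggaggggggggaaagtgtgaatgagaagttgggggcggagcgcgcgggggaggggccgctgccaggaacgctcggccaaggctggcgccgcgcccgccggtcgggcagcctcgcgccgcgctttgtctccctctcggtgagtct
This motif occurred in 8.3% of all promoters, in 7 of the 75 named genes that rose and in 4 of the 48 that fell.

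Genes of formative pluripotency, the state that follows exit from the naive one, rose together but mostly remained below the level at 72 h. Of 16, 14 rose and none fell (12 with TMM), with a median log2 fold change of 1.61. Against N72h 13 were lower and 2, Lef1 and Tcf15, were higher, with a median of -0.93. Pou3f1 (Oct6), a factor of the early post-implantation epiblast, rose 58-fold from 7.07, 7.89 and 7.2 to 438, 452 and 418 normalized counts (adjusted p = 8.73e-16), with 1545, 1815 and 1484 in N72h. Dnmt3b, a de novo DNA methyltransferase, rose 5.26-fold to 12910, 12030 and 13380, against 49700, 56660 and 55040 in N72h. Otx2 rose 2.66-fold and Pim2, a kinase, 11.1-fold. Every CHp2 library lay between 2i-p5 and N72h for these 4 genes.

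Tcf15, a bHLH factor linked to priming for differentiation, went beyond both. It read 84.8, 120 and 61.7 normalized counts in 2i-p5, 804, 742 and 637 in CHp2 and 129, 155 and 125 in N72h (log2 fold change against 2i-p5 3.05, SE 0.19, adjusted p = 2.71e-16). Sox3 rose 7.58-fold to 104, 173 and 131, all below the 221, 200 and 192 of N72h, although this second difference did not pass the test (adjusted p = 0.198). Tead2 and Zic2, high in all 3 groups, did not differ detectably from 2i-p5 (log2 fold changes 0.00 and -0.10, adjusted p = 0.985 and 0.645).

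**Figure D3:**
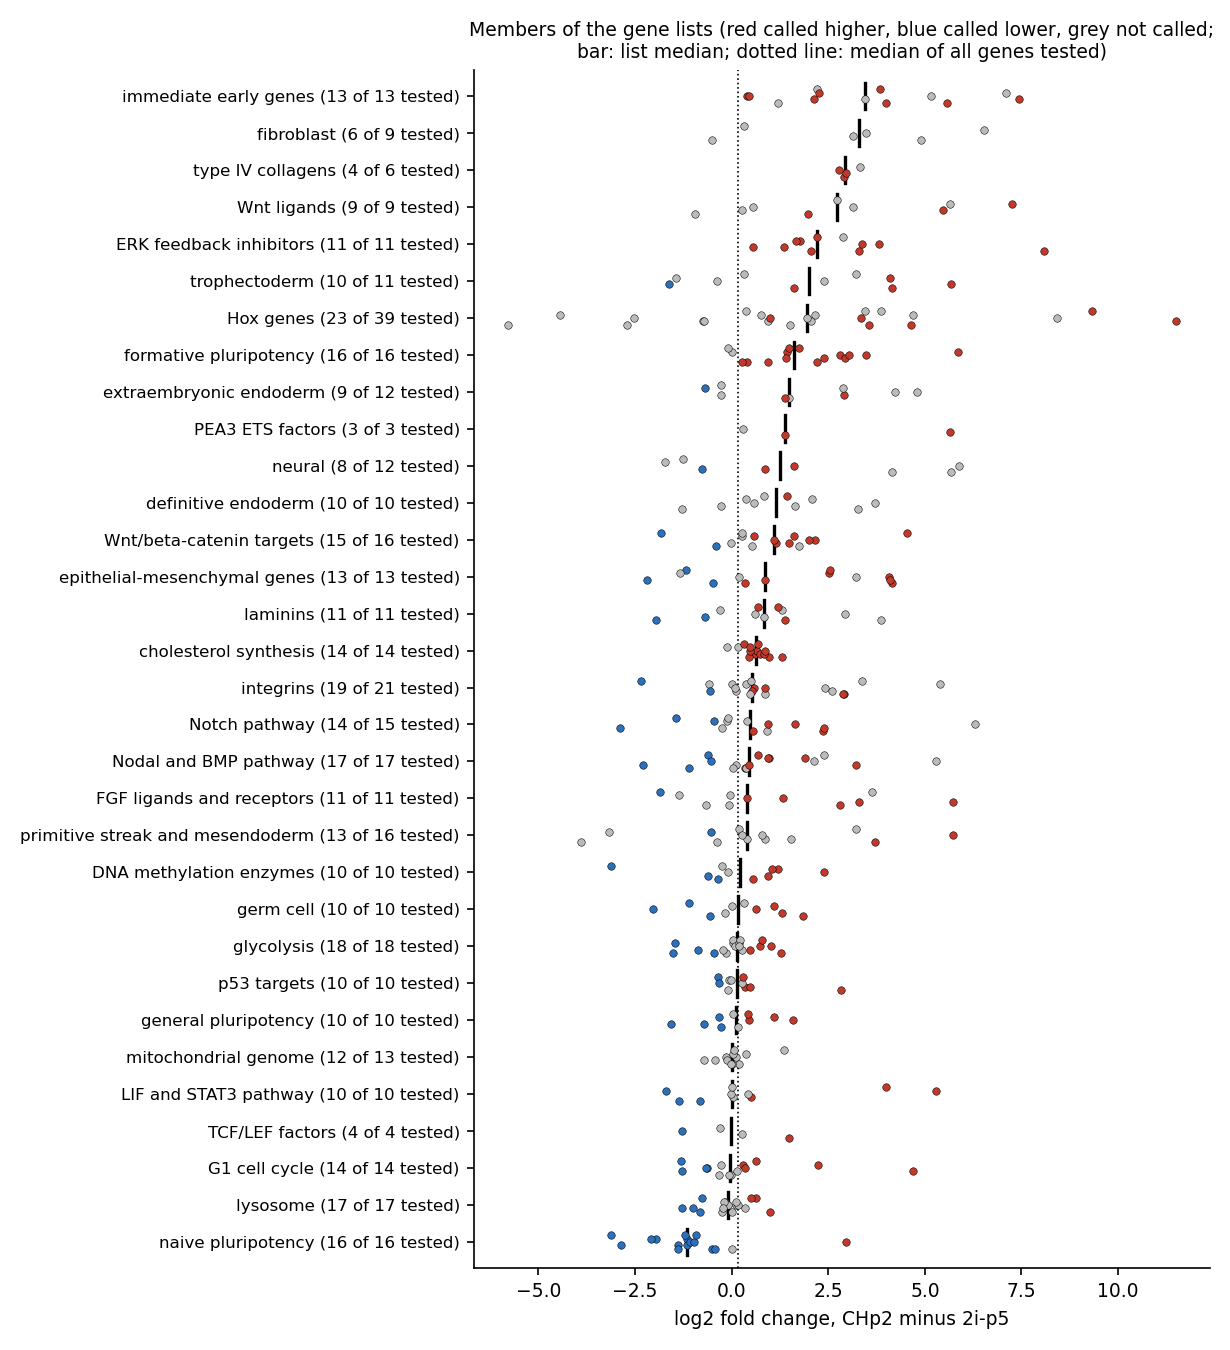
Log2 fold change, CHp2 minus 2i-p5, of each tested member of 32 gene lists (points), with the list median as a black bar and the median of all genes tested (0.17) as a dotted line. Red members were called higher, blue lower and grey neither. The naive pluripotency list lies lowest, with 14 of 16 members lower, and the ERK feedback and formative lists lie to the right of the dotted line.

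Markers of other cell types that such cultures can hold were mostly under an FPKM of 1, and some of these still differed by the test. Definitive endoderm genes had 8 of 10 members under an FPKM of 1 in both groups, and Foxa2 reached 36.2, 33.8 and 39.2 normalized counts in CHp2 from 2.15 ± 2.67 in 2i-p5, an FPKM of 0.615 (adjusted p = 9.95e-04). Only Trh, a hormone gene that ESCs also express, rose (2.69-fold, from 4926 ± 398 to 13240 ± 1297), and it makes up most of the summed FPKM of this list, which was 141 to 180.3 in 2i-p5 and 363 to 399.6 in CHp2. Of 12 neural genes 9 stayed under an FPKM of 1, with a summed FPKM of 24.6 to 26.9 in 2i-p5 and 22.6 to 25.3 in CHp2. Nes rose 3.08-fold and Tubb3 fell to 58.8%. By adjusted p alone, without the minimum, 5 of the 8 neural genes tested were higher and 2 lower. Sox1 gave 89.3, 109 and 82.2 normalized counts in CHp2, an FPKM of 0.775 (adjusted p = 4.86e-09). Pax6, also under the minimum, was lower (log2 fold change -1.73, adjusted p = 6.47e-06). Of 9 fibroblast genes 8 stayed under an FPKM of 1, and none met both criteria by edgeR or DESeq2, although 4 of 6 tested were higher at an adjusted p under 0.05 without the FPKM minimum (4 also at an unadjusted p under 0.05), with a summed FPKM of 1.24 to 2.42 in 2i-p5 and 1.95 to 3 in CHp2. The part of these cell types in other results was not tested.

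For extraembryonic endoderm genes, which mark primitive endoderm, the summed FPKM was 37.4 to 47.1 in 2i-p5, 41.2 to 47.6 in CHp2 and 84.6 to 166.1 in N72h. Of the 12 listed, 9 stayed under an FPKM of 1 in 2i-p5 and CHp2, and of the other 3, 2 rose and 1 fell. By adjusted p alone, without the minimum, 6 of the 9 tested were higher and 1 lower, with a median log2 fold change of 1.47. Some members differed more between the 2 lines in CHp2, where the clonal line has 1 library and no test was made, and of these Cubn and Gata6 were named after their values were seen. Cubn, an endocytic receptor of visceral endoderm, read 10.6 and 12.5 normalized counts in the parental CHp2 libraries and 252 in the clonal one. Gata6, a factor that directs cells to primitive endoderm, read 6.38, 13.8 and 35.5. The collagen Col4a1 gave 679 and 647 against 1618, and the laminin Lama1 296 and 215 against 729. The clonal library was thus the highest for all 4, as it also was in N72h, where Cubn read 817, 998 and 3131.

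Col4a1 was called higher in CHp2 (log2 fold change 2.91, SE 0.65, adjusted p = 3.75e-04) and Lama1 lower (-1.95, SE 0.50, adjusted p = 0.0018). Each had groups that did not overlap. Against the other 2i libraries Col4a1 did not differ detectably (log2 fold change 0.51, adjusted p = 0.484). Of 6 laminins that passed, 3 rose and 2 fell (3 and 3 with TMM), and Lamb1 and Lama5 rose 2.62-fold and 2.29-fold. With only the parental libraries, 2894 genes were higher and 1267 lower over the whole table.

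**Figure D4:**
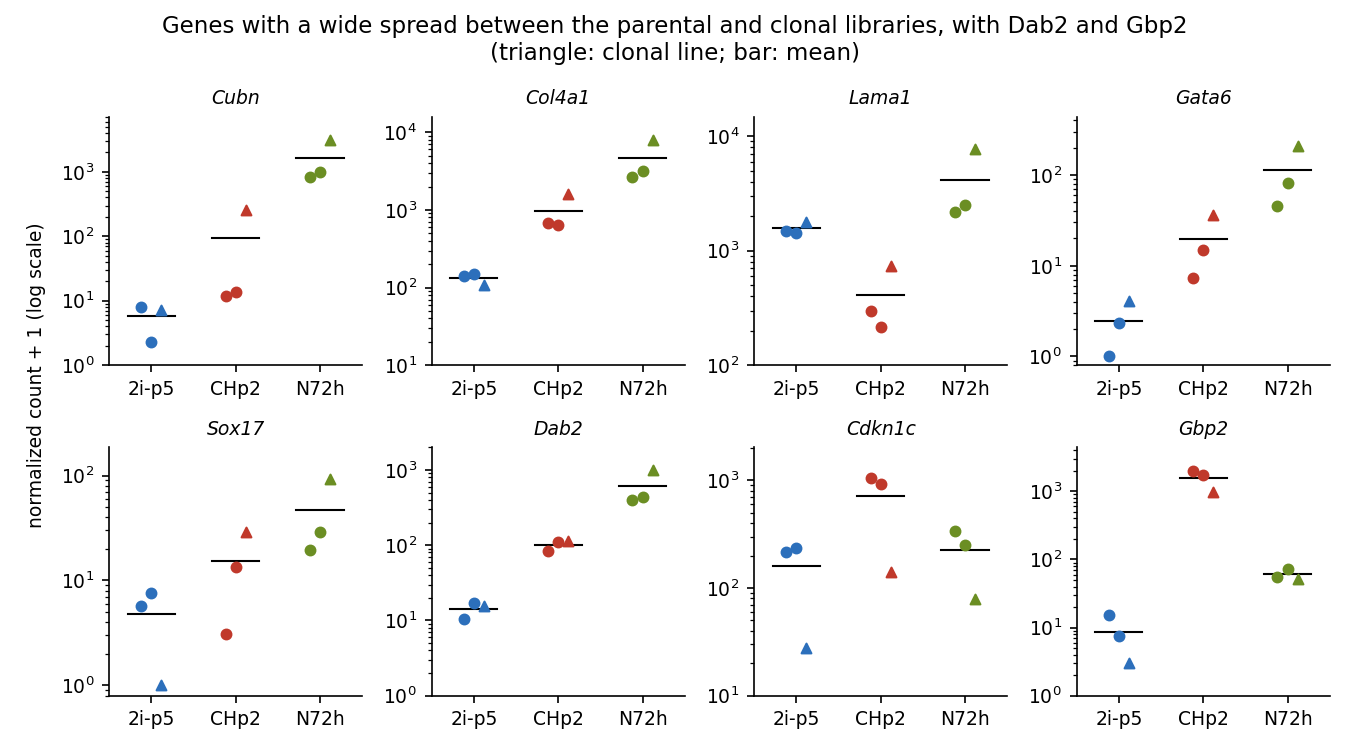
Normalized count plus 1 (log scale) of 8 genes in 2i-p5, CHp2 and N72h (n = 3 each), with circles for the parental line, triangles for the clonal line and bars for group means. The clonal library was highest for Cubn, Col4a1, Lama1 and Gata6 in CHp2 and N72h, and lowest for Cdkn1c in all 3 groups.

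Of 13 epithelial and mesenchymal genes listed, 10 passed the FPKM minimum, 7 rose and 3 fell. Krt8 and Krt18, the paired keratins of simple epithelia, rose 17.1-fold and 17.6-fold: Krt8 read 144, 125 and 130 normalized counts in 2i-p5 and 2623, 2548 and 1592 in CHp2 (adjusted p = 1.15e-18). Krt19 rose 51.6-fold to 645, 492 and 364. Cldn6, a tight junction protein, rose 16.9-fold to 3142, 2764 and 2750, and Epcam, an adhesion molecule of epithelia and ESCs, 5.68-fold to 4852, 4482 and 4568. The groups did not overlap for any of these 5. Zeb1, a repressor of epithelial genes, fell to 21.9% and Fn1 (fibronectin) to 44.1%, while Cdh2 (N-cadherin) and Twist1 rose 1.83-fold and 5.82-fold. Cdh2 did not differ detectably from the other 2i libraries (log2 fold change 0.11, adjusted p = 0.676). Cdh1 (E-cadherin) rose by 0.35 on the log2 scale, a call that TMM and the parental libraries alone did not make. It did not differ detectably from the other 2i libraries (log2 fold change -0.25, adjusted p = 0.0727). The Cdh1 call was also lost without CHp2 replicate 4 (0.28), 2i-p5 replicate 1 (0.30) or 2i-p5 replicate 3 (0.32).

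Keratins also mark trophectoderm, so the other markers of that lineage were read beside them. Gata3 gave 8.51, 3.75 and 0 normalized counts in CHp2, Elf5 stayed at an FPKM of 0.0297, and Elf3 fell to 32.2%. Of the 7 listed genes that passed, 4 rose (the keratins Krt8, Krt18 and Krt19, and Cdx2) and 1 fell. By adjusted p alone, without the minimum, 6 of the 10 tested were higher and 1 lower. The median log2 fold change over the 10 was 2.00, or 1.34 with the 1 gene at the detection floor set to its bound. The summed FPKM of the 11 listed genes was 63.3 to 66.6 in 2i-p5 and 122.1 to 170.3 in CHp2.

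In the Nodal and BMP pathway, 7 genes rose and 4 fell of 14 that passed. Lefty2, a secreted Nodal inhibitor and target, fell from 15430, 15870 and 15310 normalized counts to 3736, 3531 and 2179 (log2 fold change -2.30, SE 0.18, adjusted p = 6.69e-14). Nodal itself fell to 69.4%. Lefty1 read 4992 ± 241 in 2i-p5 and 6448 ± 874 in CHp2 and was not called (adjusted p = 0.0541), although the 6 libraries with the line as a block gave a call (adjusted p = 9.53e-04). The BMP target genes Id1 and Id3, inhibitors of bHLH factors, rose 9.33-fold and 3.7-fold, Id1 from 2.36, 19.7 and 27.8 to 198, 168 and 178. Smad7 fell to 46.4%. Nodal, Lefty1 and Lefty2 were all higher in CHp2 than in N72h, with log2 differences of 2.05, 3.52 and 4.18.

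Notch genes showed no shared direction, with 5 higher and 3 lower of 12 that passed (5 and 5 with TMM). The ligand Dll1 rose from 84.8, 60.5 and 55.5 to 342, 317 and 336 normalized counts (log2 fold change 2.36, adjusted p = 4.08e-11), and the ligands Dll3 and Jag2 rose 5.27-fold and 3.11-fold. The receptor Notch4 fell to 13.4% (561 ± 55.7 to 75.3 ± 11.9), and Notch1 to 72.6%. Rbpj, the DNA-binding partner of activated Notch receptors, read 3023 ± 314 and 4011 ± 285, with groups that did not overlap but no call (adjusted p = 0.118). It was called in the 15 RGd2 libraries (adjusted p = 0.0107), in the 6 libraries alone (1.20e-04) and in these with the line as a block (1.75e-04). Hes1, a textbook Notch target, read 397 ± 48.4 and 362 ± 21.2 (adjusted p = 0.54). Hey1 fell to 37.3% against 2i-p5, but did not differ detectably from the other 2i libraries (log2 fold change 0.33, adjusted p = 0.257).

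Of 10 enzymes and regulators of DNA methylation, 5 rose and 3 fell (5 and 5 with TMM). Besides Dnmt3b, the de novo enzyme Dnmt3a rose 1.9-fold and its partner Dnmt3l 2.29-fold, to 5501, 4293 and 4398 normalized counts where N72h held 633, 617 and 634. Tet1, which oxidises methylcytosine, fell to 65.7%, and the maintenance enzyme Dnmt1 to 78% (log2 fold change -0.36, adjusted p = 0.0103), a call lost without CHp2 replicate 5 (-0.31). Dnmt3a did not differ from the other 2i libraries (log2 fold change 0.08, adjusted p = 0.61). Of 10 germ cell genes 4 rose, among them Mael (3.6-fold) and Ddx4 (2.48-fold), and 3 fell, among them Prdm1 (to 24.6%) and Ifitm3 (to 46.2%). Prdm1 did not differ detectably from the other 2i libraries (log2 fold change 0.21, adjusted p = 0.54).

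Of 14 genes of cholesterol synthesis and uptake, 12 rose, 11 of them with TMM, which called 1 lower, with a median log2 fold change of 0.64. Lss, which closes the sterol ring, rose 2.48-fold (from 2995, 3342 and 2897 to 8148, 7479 and 7262 normalized counts) and Cyp51 1.97-fold. Glycolysis genes split, with 5 higher and 4 lower of 18 (5 and 7 with TMM) and a median of 0.13, close to that of all genes. Ldha, which makes lactate, rose 2.03-fold, and Ldhb, which favours the reverse reaction, fell to 35.9%. The glucose transporter Slc2a1 rose 2.43-fold, from 4637 ± 208 to 11240 ± 2163, and Hk1 fell to 34.9%.

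Lysosomal genes included 3 higher and 4 lower of 17, or 3 and 9 with TMM. Ap3b2 fell to 49.9% against 2i-p5 and Acp5 rose 1.99-fold. Neither differed detectably from the other 2i libraries (log2 fold changes 0.27 and -0.14, adjusted p = 0.118 and 0.614). The genes of the mitochondrial genome had no member of 10 called on the spike-in scale by edgeR or DESeq2 (1 of 12 tested was lower at an unadjusted p under 0.05), and 3 lower with TMM. Ribosomal protein genes had 2 higher and 2 lower of 84 that passed, against 1 and 19 with TMM. Replication-dependent histone genes had 12 higher and none lower of 57, against 9 and 3 with TMM.

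Among 14 genes of the G1 phase, 5 rose and 4 fell (3 and 6 with TMM). Ccnd2 (cyclin D2), which drives entry into the cell cycle, rose 25.9-fold from 68.3, 96 and 46.3 to 2059, 2016 and 1304 normalized counts (adjusted p = 1.34e-13), while N72h held 98.5, 136 and 200. Ccnd1 did not differ detectably at 4449 ± 650 and 4364 ± 295 (adjusted p = 0.884). E2f1 and Cdkn2a fell to 41% and 40.4%. Cdkn1c, an imprinted cell cycle inhibitor, read 214, 231 and 26.7 in 2i-p5 and 1057, 930 and 140 in CHp2, so that the clonal library of CHp2 lay within the range of 2i-p5. It was called higher (log2 fold change 2.24, SE 0.66, adjusted p = 0.0062), and the call was lost without the clonal 2i-p5 library (1.67). Ccne1 rose by 0.28 on the log2 scale, a call lost with TMM and with 5 of the 6 libraries left out in turn, and fell by 0.82 against the other 2i libraries. Of 10 p53 targets 4 rose and 2 fell (2 and 3 with TMM). Perp rose 7.14-fold, and Cdkn1a (p21) read 1487 ± 156 and 1807 ± 221 (adjusted p = 0.13), with a call in the 6 libraries with the line as a block (adjusted p = 0.0189).

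Of 9 integrins that passed, 5 rose and 2 fell (5 and 3 with TMM). Itga3 rose 7.33-fold to 2095, 2048 and 1446 normalized counts, Itga1 7.47-fold to 483, 492 and 611, and the shared beta chain Itgb1 1.8-fold, while Itgb3 fell to 20.1%, from 137, 125 and 227 to 21.3, 22.5 and 54.2, and without the clonal 2i-p5 library no longer met the FPKM minimum. All 3 type IV collagens that passed rose, with Col4a2 going from 82.5, 64.4 and 45.2 to 368, 384 and 665, again highest in the clonal library. The summed FPKM of all 6 listed was only 1.07 to 1.72 in 2i-p5, so that the minimum itself favoured a rise. By adjusted p alone, without the minimum, all 4 tested were higher. Against the other 2i libraries Col4a2 did not differ detectably (log2 fold change 0.89, adjusted p = 0.226), and Col4a5 no longer met the FPKM minimum without CHp2 replicate 4.

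Outside the lists, the largest rises among called genes with more than 3 counts in at least 1 library of each group were those of Gbp2b and Gbp2, interferon-inducible GTPases that lie beside each other on chromosome 3. Gbp2 gave 14.1, 6.57 and 2.06 normalized counts in 2i-p5, 2012, 1754 and 975 in CHp2, and 55, 71.8 and 51.2 in N72h (log2 fold change 7.98, SE 0.46, adjusted p = 1.32e-17). Gbp2b went from 4.71, 7.89 and 0 to 1321, 1174 and 643 (8.08, SE 0.49, adjusted p = 6.54e-17). The clonal library was lowest for both in CHp2. For Gbp2b, as for Wnt6, Has2, Tmem54 and Pxdc1, the 2i-p5 libraries averaged under 3 counts, so that the fitted fold is imprecise. Gbp2 and Gbp2b are close paralogs, of which only uniquely matching reads were counted, and what this leaves out was not tested.

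Their promoters are shown because both hold the interferon response motif (GAAANNGAAA on either strand, in capitals), which lies 59 bases before the start site in Gbp2 and 137 before it in Gbp2b, in RefSeq's GRCm38.p6 at chr3:142620413-142620662 and chr3:142594597-142594846, plus strand.
Gbp2: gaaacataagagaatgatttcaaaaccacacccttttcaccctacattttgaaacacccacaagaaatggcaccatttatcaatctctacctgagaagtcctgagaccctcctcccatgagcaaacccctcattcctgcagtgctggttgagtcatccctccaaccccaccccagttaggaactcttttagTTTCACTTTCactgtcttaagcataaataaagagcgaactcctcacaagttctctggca
Gbp2b: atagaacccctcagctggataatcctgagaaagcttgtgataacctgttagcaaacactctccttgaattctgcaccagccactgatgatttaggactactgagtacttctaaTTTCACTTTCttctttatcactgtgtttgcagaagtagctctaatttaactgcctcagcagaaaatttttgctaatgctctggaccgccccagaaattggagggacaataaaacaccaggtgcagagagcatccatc
This motif occurred in 3.44% of all promoters, in 4 of the 75 named genes that rose and in 1 of the 48 that fell. The other motifs searched were AP-1 (TGAGTCA, 5.2% of all promoters), ETS (CCGGAAG, 8.86%) and the CArG box, searched by its consensus (1.63%), which matched 4, 3 and 2 of the 75 promoters and 1, 4 and 0 of the 48.

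The other large rises fell into those shared with N72h and those not. Has2, which makes hyaluronan, rose from 2.36, 6.57 and 2.06 to 557, 566 and 555 normalized counts and read 483, 479 and 444 in N72h. Tmem54, Kcnj3 (a potassium channel subunit) and Pxdc1 likewise rose and did not differ detectably from N72h (adjusted p = 0.233, 0.688 and 0.994). Kif1a, a kinesin motor, and Thbs1 (thrombospondin) rose 87.5-fold and 77-fold and were higher still in N72h, by 1.69 and 1.39 on the log2 scale. Alox15, a lipoxygenase, rose 144-fold to 2217, 1909 and 1624 against 66.4, 89 and 85.9 in N72h. The receptor tyrosine kinase Epha1 rose 57-fold to 3489, 3034 and 3421 against 1166, 1268 and 1287.

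The largest falls outside the lists were those of genes that were also low at 72 h. Spic, an ETS factor, fell from 290, 340 and 247 normalized counts to 0, 13.8 and 1.87 (log2 fold change -5.46, SE 0.36, adjusted p = 6.60e-16). Lipc (hepatic lipase) fell from 116, 130 and 109 to 2.13, 6.26 and 0, and the receptor Adgrg5 from 250, 262 and 195 to 12.8, 8.76 and 11.2. The cytokine gene Osm, whose product acts through the Il6st chain, fell from 127, 116 and 136 to 19.1, 3.75 and 1.87. Id4, an inhibitor of bHLH factors, fell to 4.78%, opposite in direction to Id1 and Id3. Calcoco2, an autophagy receptor, fell from 1096, 1118 and 920 to 93.6, 76.3 and 44.8. Rec114, Pla2g4e, Timm8a2 and Aldh3a1 completed the 10, with 4.56% to 7.71% of the 2i-p5 level left, and Rec114 alone was higher in N72h than in CHp2 by the test (24.9, 28.1 and 39.6 against 10.6, 12.5 and 9.34).

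The baseline bears on many of the smaller calls. With the other 2i libraries as reference, 2033 genes were higher in CHp2 and 4709 lower, and the median gene stood at -0.19 on the log2 scale. Both references share the CHp2 libraries. By the study's methods, the 2 references may differ in culture history, and the effect of this was not tested. Among the genes named above and called against either reference, those whose sign turned were Acp5, Ap3b2, Ccne1, Cdh1, Etv1, Fgfr1, Hey1 and Prdm1. Of these, only Ccne1 and Etv1 passed the test in the new direction. The rest did not differ detectably from the other 2i libraries (adjusted p = 0.0727 to 0.928). Those that kept direction but no longer passed the test were Cdh2, Cdkn1c, Cdx1, Cdx2, Col4a1, Col4a2, Dnmt3a and Myc. Aldh3a1 (log2 fold change -3.70, adjusted p = 1.25e-07) and Itgb3 (-1.10, adjusted p = 0.007) still passed it and missed only the FPKM minimum. Those that gained a call were Ccnd1, Eomes, Hes1, Lefty1 and Wnt3. Dusp6, Spry4, Etv4, Wnt8a, T, Fgf8, Hoxb1, Nanog, Tfcp2l1, Prdm14, Pou3f1, Dnmt3b and Krt8 kept direction and call.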

How the data were processed

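RNA with added ERCC spike-ins was sequenced by the authors, strand-specific and paired-end. The library protocol names ribosomal depletion of total RNA, while the molecule field of the labels reads polyA RNA. Per the methods and labels, reads were trimmed with Trim Galore, aligned with TopHat2 to mm10 with the spike-in sequences, and assigned to Gencode M14 genes with featureCounts (tool versions are not given in the sources used here), and the authors deposited raw read counts per gene with each gene's exon length. These sources do not say that molecular identifiers were used in counting, so the detection floor of 3 counts per library covers counting error only.

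Here, each library was scaled by its median ratio to the average library, taken over the 52 of 92 spike-ins detected in all 32 libraries. The 193 genes without a symbol (0.0259% of counts) kept their identifier. edgeR 4.0.16 (R 4.3.3) fitted all 32 libraries with a coefficient per group after filterByExpr, and its quasi-likelihood test was two-sided with Benjamini-Hochberg adjustment. FPKM was computed from the deposited counts and lengths. On simulated counts for 17903 genes of this comparison, the test recovered 33 of 33 genes changed by 2 on the log2 scale, 31 of 34 changed by 1 and 24 of 34 changed by 0.5. It recovered 33, 32 and 19 of 33 changed by -2, -1 and -0.5. The changed genes were drawn only from those with higher mean counts, and adjusted p alone was used, without the FPKM minimum. Recovery of genes with low mean counts was not tested.

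Members, gene lists and tests were chosen with earlier results of these data known. Named genes are the defining members of 34 lists, the 3 other called members with the largest change per direction, and the 10 largest changes per direction outside the lists among called genes with more than 3 counts in at least 1 library of each group whose groups did not overlap. The list members Cubn, Dppa3, Elf5, Epcam, Gata6, Hoxa2, Sp8, Tcf7l2, Tead2, Twist1 and Zic2 lie outside this rule and were named after their values were seen. Promoters came from RefSeq (GRCm38.p6) and were matched by symbol. Those on chr18 were left out for the named genes but kept among all promoters searched. This gave promoters for 140 of 196 named genes. Alternatives were TMM and other size factors, DESeq2 1.42.0, other filters, sets of libraries and baselines, and leaving out each library. A fit of the parental libraries only was added after seeing the data. Replicate numbers are not shared between groups, so they paired no libraries. Some list members are not reported here by name.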

Additional observations from a re-analysis of the deposited data

How the results depend on the processing

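Over 193 named genes, 183 showed no change of direction under any alternative. Such a change was counted only where the main fit or the alternative called the gene. A call was lost for 18 genes when a library was left out, including Sall4, Ccne1, Cdh1, Dazl, Cdkn1c (1.67 without the clonal 2i-p5 library) and Cdx4 (4.15 without CHp2 replicate 4). Counts of genes higher and lower than in 2i-p5 were 2675 and 3461 with TMM, 3127 lower with the size factors of the genes, 1319 and 529 with an absolute log2 fold change of at least 1, and 2033 and 4709 with the other 2i libraries as baseline. Against N72h, 3185 were lower with TMM, and 768 and 548 passed a log2 fold change of 1. On leaving out each library, 2663 to 3360 genes were higher and 1343 to 1661 lower against 2i-p5, and 1781 to 2380 higher and 1599 to 2026 lower against N72h. The difference in spike-in share (-0.12 percentage points) ranged from -0.156 to -0.0816. The baseline of the other 2i libraries turned the sign of Acp5 (-0.14), Ap3b2 (0.27), Ccne1 (-0.82), Ccne2 (-0.15), Cdh1 (-0.25), Ctsc (-0.0095), Etv1 (-0.43), Fgfr1 (-0.015), Hey1 (0.33) and Prdm1 (0.21). Of these genes, only Ccne1 and Etv1 passed the test there. The sign also turned for the list medians of PEA3 factors (-0.21), Wnt targets (-0.19), DNA methylation enzymes (-0.39) and the mitochondrial genome (-0.52). The median of all genes tested turned likewise, from 0.17 to -0.19. The cause was not tested. No paired analysis was possible because replicate numbers are not shared between groups, and the groups share only the 2 lines. With the line as a block over the 6 libraries, Etv5, Lefty1, Rbpj, Cdkn1a and Ctsl gained a call and no named gene lost its call. The detection floor of 3 counts limits the folds of Egr1, Hoxb1 and Hoxb2 to lower bounds.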
